A study of Arabidopsis thaliana with 16 samples.

Results

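The genes described here are nuclear genes of Arabidopsis thaliana that encode proteins of the plastid ribosome. A list of 38 such loci was matched to the probe annotation of the ATH1 array, and a locus was measured where a probe set matched that gene alone. This held for 8 of the 38 loci, each with 1 probe set, out of 13355 loci with a probe set of their own in that annotation. The annotation may be incomplete, so a missing match does not show that the array lacks a probe set for a locus. The measured genes encode 6 proteins of the large subunit, namely L3 (AT2G43030), L5 (AT4G01310), L17 (AT3G54210), L19 (AT4G17560 and AT5G47190) and L29 (AT5G65220), and 2 of the small subunit, S6 (AT1G64510) and S10 (AT3G13120). The annotation gives these 8 genes by locus code, so the protein names and the roles given below are textbook knowledge and not a result. The 30 loci without a match all have a gene symbol, so the 8 may not stand for the whole list. No probe set of its own was matched to the other 30 loci, which have no value here and include EMB3126, RPL15, emb2394, RPL27, PRPL28, RPL24, RPL21C, RPL4, PRPS20, EMB3137, RPS9, EMB3113, SSR16, RPL9, RPL12-C, RPL12-A, EMB3136, PRPL11, emb1473, EMB3105, emb2184, PRPL35, PSRP3/1, PSRP2, PSRP4, PSRP5, PSRP6, RPS1 and GHS1.

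The plastid ribosome descends from that of the cyanobacterial ancestor of plastids and resembles the ribosome of bacteria. Its ribosomal RNAs and a minority of its proteins are encoded in the plastid genome, and the nuclear genes supply the rest as precursors that are imported into the plastid. In a seedling it translates the plastid-encoded subunits of the photosystems and of Rubisco, which are made in quantity when a dark-grown seedling turns green.

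By its title the series asked how photoreceptors act on the shoot meristem and on the start of leaves, and it held 16 arrays in 10 groups. All seedlings were of the accession Landsberg erecta, which carries a mutated ERECTA receptor kinase, and grew on medium without sucrose. Seeds were kept in the cold and dark for 3 days, given 30 min of white light at 100 µmol per square metre per second to start germination, and grown in the dark at 21 °C for 3 days. The dark seedlings were then harvested under a green safelight, and the others were moved to white light for 1, 2, 6, 24, 48 or 72 h. The shoot apex was cut below the meristem and at the cotyledon bases, and the cotyledon samples lacked the petiole and the tip. The apex groups held 2 arrays in the dark and after 1 and 6 h, and 1 array after 2, 24, 48 and 72 h. The cotyledon groups held 2 arrays each, in the dark and after 1 and 6 h. The labels of the apex samples at 48 and 72 h add developing leaf primordia to the meristem region. Each sample pooled about 1500 seedlings at 72 h to over 4000 in the dark, from multiple plates and several experiments, so the replicate spread is that between pools. A longer time in light was also a greater age, and light and age cannot be told apart.

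Signals are linear intensities that the submitters scaled to a common trimmed mean per array. All 8 probe sets were bright: the lowest signal of any of them on any array was 412.9, against a 35th percentile of 12.43 to 18.58 on the arrays. They stood at percentiles 92.94 to 99.91 of their arrays. Shares and medians over all probe sets, given below, thus come mostly from dimmer probe sets. For the apex at 6 h against the dark, the median SE was 0.27 over the 8 genes and 0.42 over all probe sets tested. Between replicates of a group, log2 signals over all probe sets correlated at 0.893 to 0.924. The second apex array at 6 h stood apart in the ratio of 3′ to 5′ probe sets for GAPDH, at 5.40 against 0.83 to 1.85 on the other apex arrays and 1.73 to 4.72 on the cotyledon arrays, and the counts at 6 h are also given without it below. For actin the same ratio was 30.43 on that array and 5.20 to 14.23 on all other arrays, so it was high on every array. Of 11 listed meristem markers 3 were measured, and their summed signal was 18.1 to 77.9 on apex and 9.5 to 52.4 on cotyledon arrays. CLV3, a meristem peptide, was at or below the 35th percentile on every cotyledon array, and UFO, with signals of 1.0 to 10.6, was so on all 16 arrays. The 2 measured markers of storage cells summed to 61.4 to 4895 on apex and 2127 to 10522.5 on cotyledon arrays.

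The members are described in the order of their place in the ribosome, as known from Escherichia coli. L3 lies near the peptidyl transferase centre. In the apex, the signals of L3 were 2672 and 3293 in the dark and 2774 and 3723 after 1 h, then 2913 after 2 h and 3062 and 4897 after 6 h, and 3207, 2792 and 2679 after 24, 48 and 72 h of light. The cotyledon arrays read 5409 and 5396 in the dark, 6698 and 4597 at 1 h and 6309 and 4780.3 at 6 h. The cotyledon signals of L3 lay above the apex signals in every group, except that the second apex array at 6 h overlapped with the cotyledon range. L5 binds the 5S ribosomal RNA in the central protuberance. L5 gave apex signals of 1432 and 1447 in the dark, 1874 and 2037 at 1 h, 1799.9 at 2 h, 1180.1 and 1445 at 6 h, 1410.2 at 24 h, 863 at 48 h and 589 at 72 h of light. Its cotyledon signals were 4309 and 4057 (dark), 4292 and 3323 (1 h) and 3079 and 2559.5 (6 h). L5 was lower on the 48 and 72 h arrays than on any other apex array, and each cotyledon array was above each apex array.

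L17 and L29 lie at or near the exit of the tunnel through which the growing peptide leaves. For L17 the apex arrays read 1567 and 1595 in the dark, 1884 and 2120.2 at 1 h, 1869.6 at 2 h, 2084 and 2170.0 at 6 h, and 2009, 1421 and 1137 at 24, 48 and 72 h. Cotyledons gave 4677 and 3319.9 in the dark, 3979 and 3089 at 1 h and 3866 and 3488 at 6 h of light. All light arrays of the apex up to 24 h were above both dark arrays for L17, and those at 48 and 72 h were below both. In the apex, the signals of L29 were 2114 and 1658 in the dark and 1994 and 2258 after 1 h, then 2269.7 after 2 h and 2344 and 3089.5 after 6 h, and 2077, 1499.9 and 1387 after 24, 48 and 72 h of light. The cotyledon arrays read 4716 and 3659 in the dark, 4004 and 3264 at 1 h and 4289 and 3698 at 6 h. L29 followed the same order except that its first apex array at 1 h and its 24 h array fell within the range of the dark pair. Its cotyledon arrays were all above its apex arrays.

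L19 lies on the face of the large subunit that meets the small subunit, and it is encoded by both AT4G17560 and AT5G47190. AT4G17560 gave apex signals of 516 and 508 in the dark, 659 and 800.1 at 1 h, 693 at 2 h, 817 and 781 at 6 h, 680.1 at 24 h, 518 at 48 h and 413 at 72 h of light. Its cotyledon signals were 1763 and 2080.4 (dark), 2030.1 and 1507 (1 h) and 1046 and 944 (6 h). In cotyledons, AT4G17560 was lower on both 6 h arrays than on any dark or 1 h array. For AT5G47190 the apex arrays read 770.1 and 546 in the dark, 1099 and 1149 at 1 h, 1302 at 2 h, 1481 and 2892 at 6 h, and 1050.5, 631 and 454 at 24, 48 and 72 h. Cotyledons gave 2612 and 3006 in the dark, 3056 and 2301 at 1 h and 2511 and 2298 at 6 h of light. The 2 apex arrays at 6 h stood apart for AT5G47190, and the higher of them reached into the cotyledon range.

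S6 binds the central domain of the small ribosomal RNA together with S18. In the apex, the signals of S6 were 1704 and 1255 in the dark and 1936 and 2012 after 1 h, then 2099 after 2 h and 1872 and 2021 after 6 h, and 2020.3, 1314 and 885 after 24, 48 and 72 h of light. The cotyledon arrays read 4419 and 3312 in the dark, 3918 and 3002 at 1 h and 3450.0 and 2679.7 at 6 h. S10 lies in the head of the small subunit. S10 gave apex signals of 1494 and 1424 in the dark, 2091 and 2151 at 1 h, 2250.2 at 2 h, 2169.9 and 2374 at 6 h, 1972 at 24 h, 1505 at 48 h and 1018 at 72 h of light. Its cotyledon signals were 4466 and 4218 (dark), 4280.3 and 3276 (1 h) and 3518 and 3819.5 (6 h). For both small-subunit genes every light array of the apex up to 24 h was above both dark arrays, and every cotyledon array was above every apex array. Over the 8 genes, the apex at 72 h was the lowest group for 8, and 6 had all 6 cotyledon arrays above all 10 apex arrays, the exceptions being L3 and AT5G47190. The highest group was the dark cotyledon for 7 genes and the cotyledon at 1 h for L3, by a margin within the spread of its replicates.

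**Figure D1:**
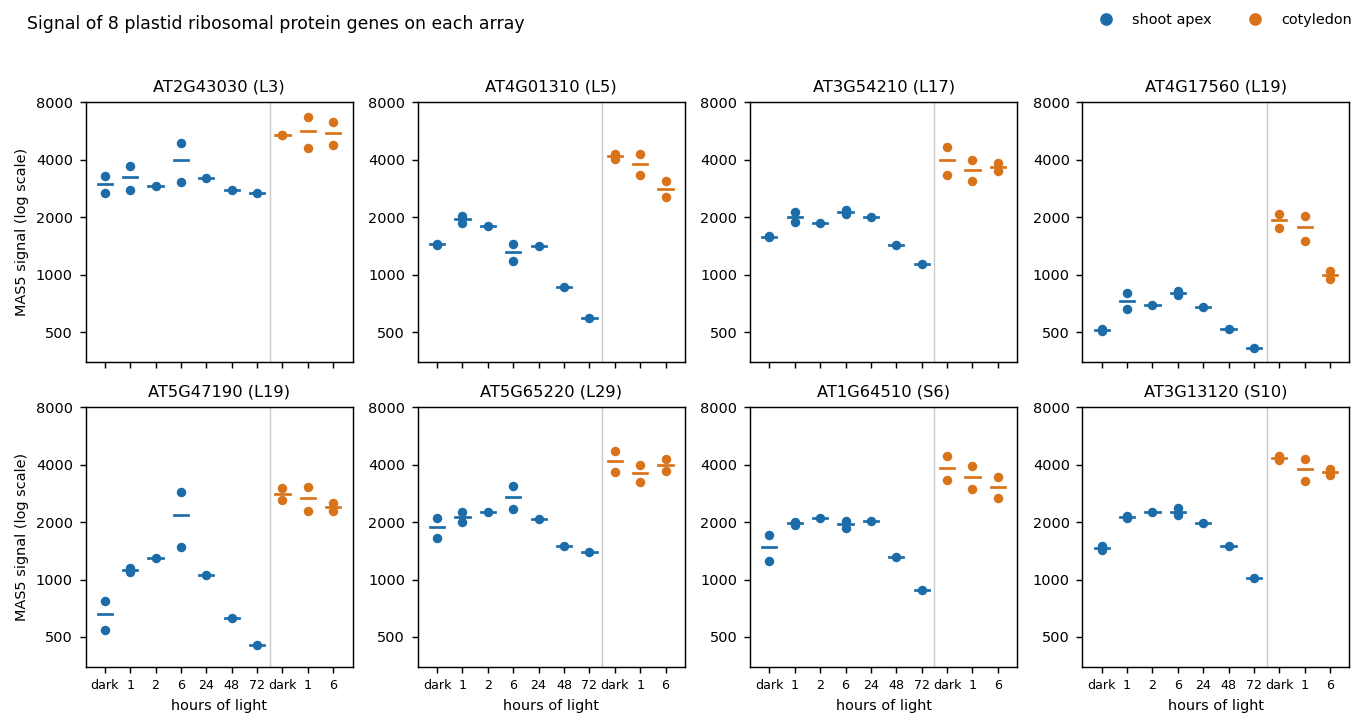
Signal of the 8 genes on each array (log axis, linear MAS5 intensity units) against hours of light, for shoot apex (blue) and cotyledon (orange); points are arrays and bars are group means. The group mean of every gene was lowest in the apex at 72 h, and 6 of the 8 had all cotyledon arrays above all apex arrays.

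In the dark, the question was how the apex and the cotyledon differed before any light. Of the 8 genes, 7 were lower in the dark apex and 0 higher, and of the 18237 probe sets tested 8.36% were called lower and 8.52% higher. The median log2 difference, apex minus cotyledon, was -1.46 over the 8 genes against 0.07 over all probe sets tested. Both L19 genes had the largest differences, at -1.90 ± 0.23 (SE, n = 2 arrays per group, adjusted p = 0.000112) for AT4G17560, a 3.74-fold lower signal, and -2.11 ± 0.31 (adjusted p = 0.000446) for AT5G47190, 4.32-fold lower. The small-subunit genes were 2.62-fold lower for S6 (adjusted p = 0.00333) and 2.97-fold lower for S10 (adjusted p = 0.00065). L5 was 2.90-fold, L17 2.49-fold and L29 2.22-fold lower, with adjusted p between 0.000781 and 0.0107. L3 had the smallest difference, -0.86 ± 0.33, which did not pass (adjusted p = 0.0894). For all 8 genes, L3 included, both apex arrays were below both cotyledon arrays, an order that 26.2% of all probe sets showed. L29 lost its call in 4 of 19 alternative settings, while the other 6 called genes passed in all 19.

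These are bulk samples, so fewer cells of a type and less RNA per cell cannot be told apart. Markers of other cell types moved with the dark difference: RCA, the activase of Rubisco and the measured 1 of 9 mesophyll markers, had signals of 2264.9 to 2316.7 in the dark apex and 4153 to 5434 in the dark cotyledon. The 2 of 12 storage-cell markers measured, led by the glyoxylate-cycle gene ICL, summed to 3670.0 to 3997 and 8542 to 8736 in the same groups. The meristem markers summed to 46.7 to 73.4 in the dark apex and 35.2 to 52.4 in the dark cotyledon. The leaf primordium markers, 2 of 5 measured, summed to 264.2 to 300.9 and 353.0 to 397.3, and the epidermis and stomata markers, 3 of 5 measured, to 71.6 to 92.0 and 80.0 to 102.1. None of the 3 vasculature markers was measured. The part of these cell types in the result was not tested. The GAPDH ratio of 3′ to 5′ probe sets was 0.90 and 1.78 in the dark apex and 4.72 and 2.60 in the dark cotyledon. At 1 h it was 0.83 and 1.85 in the apex and 2.31 and 3.54 in the cotyledon. The actin ratios overlapped, at 7.13 and 12.57 in the dark apex and 7.15 and 6.71 in the dark cotyledon. The part of these ratios in the tissue differences was not tested either.

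In light the fitted tissue differences were nearer to 0, and the tests of that shift are given with the light responses. After 1 h, 3 of the 8 genes were lower in the apex, both L19 genes and L5, and 0 were higher, with 3.79% of all probe sets called lower and 4.91% higher. All 8 fitted differences at 1 h were below 0, from -1.27 to -0.77, each with an unadjusted p under 0.05 by limma. The median difference at 1 h was -0.82 over the 8 genes and 0.16 over all probe sets, and AT4G17560 was 2.41-fold, AT5G47190 2.36-fold and L5 1.93-fold lower in the apex, with adjusted p of 0.00436, 0.0244 and 0.028. The count at 1 h was 0 without the first apex or the first cotyledon array at 1 h, and 1 without the second apex array at 1 h. After 6 h only L5 was called, at -1.10 ± 0.25 (2.15-fold lower, adjusted p = 0.0275), with 1.01% of all probe sets called lower and 2.3% higher, and it was not called without the first apex array or either cotyledon array at 6 h. Still, all 8 fitted differences at 6 h were below 0, and 4 had an unadjusted p under 0.05 by limma. The median difference was then -0.61. Both apex arrays were below both cotyledon arrays at 6 h for 6 of 8 genes, an order found in 20.2% of all probe sets. Without the second apex array at 6 h, L5 was still the 1 gene called and the median was -0.76. The 2 exceptions in that order were L3 and AT5G47190, which stood at -0.50 ± 0.33 and -0.22 ± 0.31 (adjusted p = 0.475 and 0.808).

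**Figure D2:**
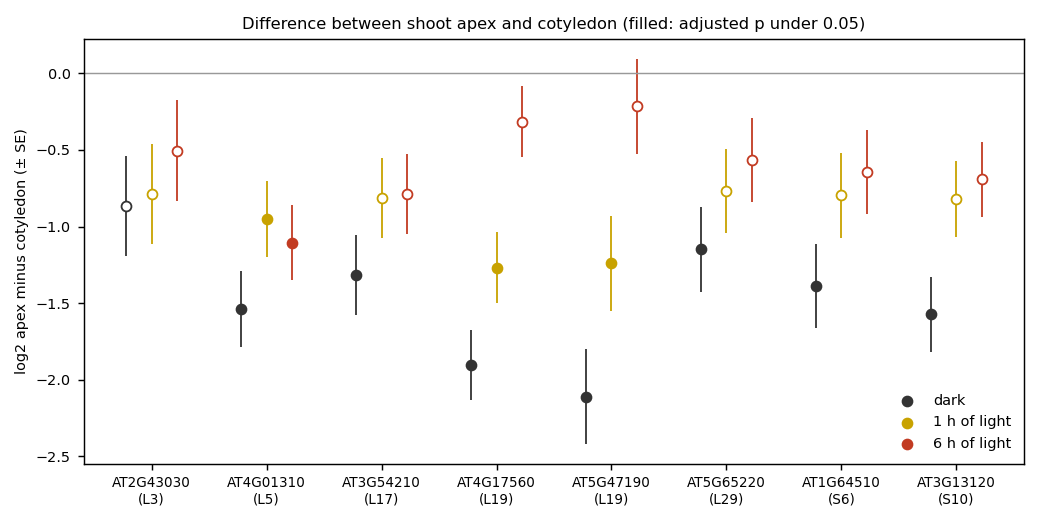
Log2 difference in signal, apex minus cotyledon, for the 8 genes in the dark, at 1 h and at 6 h of light; bars are ± 1 SE of the limma fit and filled points have an adjusted p under 0.05. In the dark 7 genes lay between -2.11 and -1.15 and passed. At 6 h only L5 did, though all 8 lay below 0.

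The next comparisons followed the apex from the dark into light. After 1 h, 0 of the 8 genes passed, against 10.8% of all probe sets called in either direction, although 3 had an unadjusted p under 0.05. All 8 fitted changes were above 0, with a median of 0.44 (log2) beside -0.00 over all probe sets, and from 0.12 ± 0.33 for L3 to 0.79 ± 0.31 for AT5G47190 (adjusted p = 0.88 and 0.128). For 6 of 8 genes both 1 h arrays were above both dark arrays, which 28.3% of all probe sets showed. AT5G47190 had an adjusted p of 0.0454 when either apex array at 6 h was left out of the fit. The single array at 2 h was above both dark arrays for 7 of 8 genes and below both for 0, orders found in 37.4% and 39.1% of all probe sets, with a median of 0.38 over the 8 genes.

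After 6 h of light, 1 of the 8 genes was higher in the apex and 0 were lower, while 12.3% of all probe sets were called higher and 12.9% lower. That gene was AT5G47190, 1 of the L19 pair, which rose 3.19-fold, by 1.67 ± 0.31 on the log2 scale (adjusted p = 0.00143), and was 1.19 and 2.16 above the dark mean on the 2 arrays. Its partner AT4G17560 stood at 0.64 ± 0.23 (adjusted p = 0.0552) and S10 at 0.64 ± 0.24 (adjusted p = 0.0735), with all 4 pairings of a light with a dark array higher for both. L29, L17, S6 and L3 lay between 0.38 and 0.52, with adjusted p between 0.191 and 0.439. L5 alone was below its dark level, at -0.14 ± 0.25 (adjusted p = 0.729). The median over the 8 genes was 0.48 beside -0.07 over all probe sets, and it was 0.052 after quantile normalization, under which L3 turned to -0.07. Their median percentile on the apex arrays was 98.57 and 98.33 in the dark and 98.64 and 98.60 at 6 h. Without the second apex array at 6 h, AT5G47190 was still the 1 gene called, at 1.19 (adjusted p = 0.0127), and the median was 0.38. AT5G47190 was called in 18 of 19 alternative settings, the exception being the fit without the second dark and the second 6 h apex array, where it stood at 0.94 with an adjusted p of 0.0785.

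Markers moved in the apex over the same 6 h. RCA rose by 1.09 ± 0.31 (adjusted p = 0.018), YAB5, a leaf primordium gene, by 1.27 ± 0.30 (adjusted p = 0.00678) and MUTE, a stomatal lineage gene, by 3.75 ± 0.77 (adjusted p = 0.00278), while ICL fell by 1.85 ± 0.34 (adjusted p = 0.00142). The other measured leaf primordium marker stood at -0.64 and was not called. The epidermis and stomata markers ran from -1.28 to 3.75, with a median of 0.16. MUTE rose from a dim signal, since these markers together summed to at most 87.3 in the apex at 6 h. A rise of 3.75 puts its mean log2 signal in the dark under the level used to filter out dim probe sets. The size of its rise is therefore uncertain. RCA signals were 4316 and 5516 at 6 h. The storage-cell markers summed to 820.1 to 1399.8 at 6 h, the meristem markers to 61.8 to 77.9, the leaf primordium markers to 249.5 to 285.7 and the epidermis and stomata markers to 81.6 to 87.3. The sums of the meristem, leaf primordium and epidermis markers at 6 h overlapped those in the dark apex given above. Those of the storage-cell markers did not, and it was ICL that lowered them. The other measured storage-cell marker, the seed-storage gene AT1G03890, stood at -0.02 and was not called. The part of these markers' cell types in the 6 h values was not tested.

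**Figure D3:**
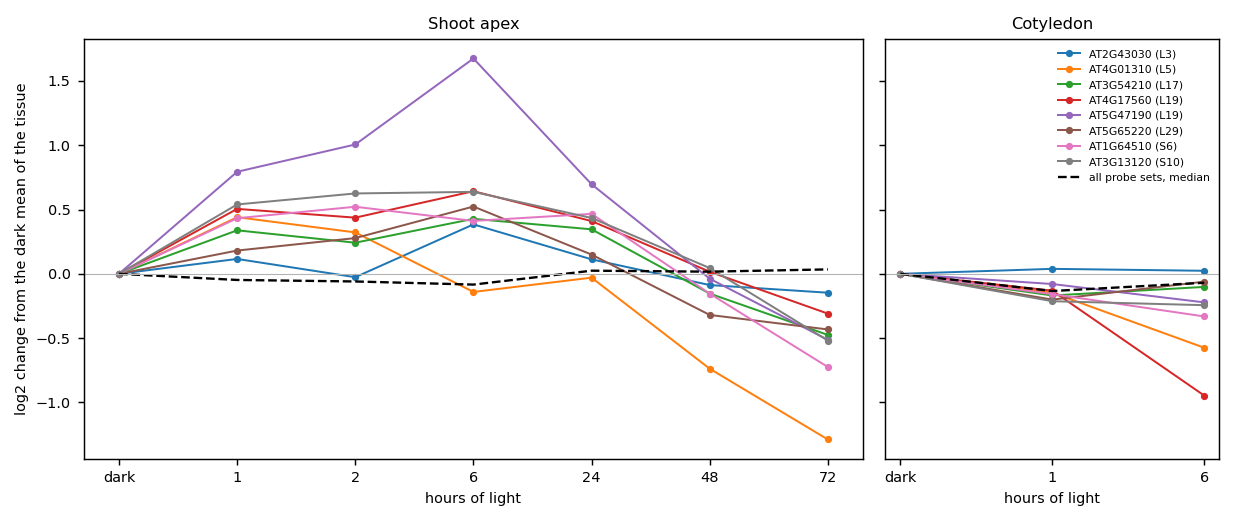
Log2 change of each gene's mean log2 signal from the dark mean of its own tissue against hours of light, for the apex (left; 1 array at 2, 24, 48 and 72 h) and the cotyledon (right); the dashed line is the median of all non-control probe sets on the array. In the apex 7 of 8 genes were above 0 at 6 h and all 8 were below 0 at 72 h.

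The later times in the apex are single arrays. The single array at 24 h was above both dark arrays for 5 genes and below both for 1, L5, and the median of the 8 genes was 0.38 above the dark mean. At 48 h 2 genes were above and 3 below both dark arrays, with a median of -0.12, and at 72 h 0 were above and 7 below, with a median of -0.49. Among all probe sets, 39.7%, 39.5% and 40.6% were above both dark arrays at 24, 48 and 72 h, and 36.4%, 36.9% and 37% below. At 72 h the changes from the dark mean ran from -0.15 for L3 to -1.29 for L5. These values and those at 2 h describe 4 pools of seedlings, and none of the 4 groups was tested on its own.

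Late light, the mean of the 24, 48 and 72 h groups, was set against 6 h and against the dark. Both comparisons use the same late arrays, as the light responses in the apex share the dark arrays, so their values are given side by side only. Against 6 h, 1 of 8 genes was lower and 0 higher, with 8.5% of all probe sets called lower and 10.3% higher. AT5G47190 fell by 1.63 ± 0.28 on the log2 scale, 3.09-fold (adjusted p = 0.00156), and it was called in all 22 alternative settings. All 8 changes were below 0, with a median of -0.58 beside 0.13 over all probe sets, and 7 had an unadjusted p under 0.05. S10, AT4G17560 and L29 stood at -0.65, -0.60 and -0.72 with adjusted p of 0.0583, 0.0603 and 0.0602. For 5 of 8 genes every late array was below both 6 h arrays, against 18.6% of all probe sets. Without the 24 h array 6 genes were called lower, so the count depends on that array, and without the second 6 h array 1 was. Against the dark, 0 of 8 passed (15% of all probe sets were called in either direction), and 1 had an unadjusted p under 0.05: L5, at -0.69 ± 0.22 (adjusted p = 0.0561), which was called in 5 of 22 alternative settings, with adjusted p between 0.0081 and 0.378.

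Markers also moved over this time in the apex. RCA rose by 1.29 ± 0.28 from the dark to late light (adjusted p = 0.00633), with signals of 5332 to 5947 on the late arrays, and YAB5 rose by 1.16 ± 0.27 (adjusted p = 0.0109). The leaf primordium marker measured beside YAB5 stood at -0.02 and was not called. The summed leaf primordium markers were 264.2 to 300.9 in the dark and 261.6 to 416.3 in late light, and the meristem markers 46.7 to 73.4 and 18.1 to 77.0. The storage-cell markers summed to 3670.0 to 3997 in the dark and 61.4 to 868.7 in late light; of the 2, ICL fell by 4.04 ± 0.31 (adjusted p = 2.06e-06) and the seed-storage gene AT1G03890 stood at 0.70 ± 0.98 (adjusted p = 0.713). Epidermis and stomata markers summed to 71.6 to 92.0 in the dark and 73.2 to 105.1 in late light. Their part in the values of the plastid ribosomal genes was not tested, and the added leaf primordia at 48 and 72 h cannot be told apart from the time in light.

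In the cotyledon, no gene was called higher after light. After 1 h 0 of 8 genes passed (2.19% of all probe sets were called), and 0 had an unadjusted p under 0.05. The median was -0.15 beside -0.12 over all probe sets, the changes ran from -0.21 to 0.04, and the 95% intervals reached from -0.79 at the lowest to 0.74 at the highest. After 6 h, 1 gene was lower and 0 higher, with 7.73% of all probe sets called lower and 7.79% higher. AT4G17560 of the L19 pair fell by 0.95 ± 0.23, 1.93-fold (adjusted p = 0.012). It was not called without the second dark cotyledon array (adjusted p = 0.0934) or without the second 6 h cotyledon array (adjusted p = 0.0896). L5 stood at -0.57 ± 0.25 (adjusted p = 0.145), and the other 6 genes lay between -0.33 and 0.02. The median at 6 h was -0.23 beside -0.08 over all probe sets, and 4 of 8 genes had both 6 h arrays below both dark arrays, against 29.9% of all probe sets.

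In the cotyledon, too, markers moved over these 6 h. The storage-cell markers summed to 2127 to 2190.2 at 6 h, below the dark arrays, with ICL called lower (adjusted p = 0.00126), and the epidermis and stomata markers to 203.6 to 205.1, above them. YAB5 rose by 1.32 ± 0.30 (adjusted p = 0.00827), while the other measured leaf primordium marker stood at -0.51 and was not called. RCA stood at 0.58 ± 0.31 (adjusted p = 0.243), with signals of 6489 and 7813. The meristem markers summed to 23.5 to 26.7 and the leaf primordium markers to 326.7 to 379.7. Their part in the cotyledon values was not tested.

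A test of the difference between tissues asked whether the apex and the cotyledon responded differently. For the 1 h response 0 of 8 genes passed (1.02% of all probe sets were called), with a median difference of 0.59, apex minus cotyledon, a smallest adjusted p of 0.353 and 1 gene with an unadjusted p under 0.05. That gene was S10, at 0.75 ± 0.35. For the 6 h response 2 genes passed, both with a higher response in the apex, and 1.25% of all probe sets were called in that direction and 1.44% in the other. These were the L19 genes, at 1.59 ± 0.32 for AT4G17560 (adjusted p = 0.0222) and 1.90 ± 0.44 for AT5G47190 (adjusted p = 0.0362). All 8 differences at 6 h were above 0, from 0.36 for L3, with a median of 0.66 beside 0.01 over all probe sets. AT4G17560 passed in 11 and AT5G47190 in 7 of 19 alternative settings. The count was 0 when any 1 array of the dark apex, the dark cotyledon or the 6 h cotyledon was left out, and 1 without either apex array at 1 h or without the second apex array at 6 h.

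AT5G47190 rose in the apex and stood at -0.22 ± 0.31 in the cotyledon (adjusted p = 0.72), while AT4G17560 stood at 0.64 ± 0.23 in the apex and fell in the cotyledon. The log2 ratio of AT5G47190 to AT4G17560 was followed on each array as its change from the dark apex mean, since levels of different probe sets cannot be compared. In the cotyledon this change was 0.23 and 0.19 in the dark, 0.25 and 0.27 after 1 h, and 0.92 and 0.94 after 6 h. In the apex it was 0.24 and -0.24 in the dark, 0.40 and 0.18 after 1 h, 0.57 after 2 h, 0.52 and 1.55 after 6 h, 0.29 after 24 h, -0.05 after 48 h and -0.20 after 72 h. In the cotyledon both 6 h arrays were above the other 4. In the apex only the second 6 h array, the one with the high 3′ to 5′ ratio, was above the 2 h array. The ratio was not tested.

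**Figure D4:**
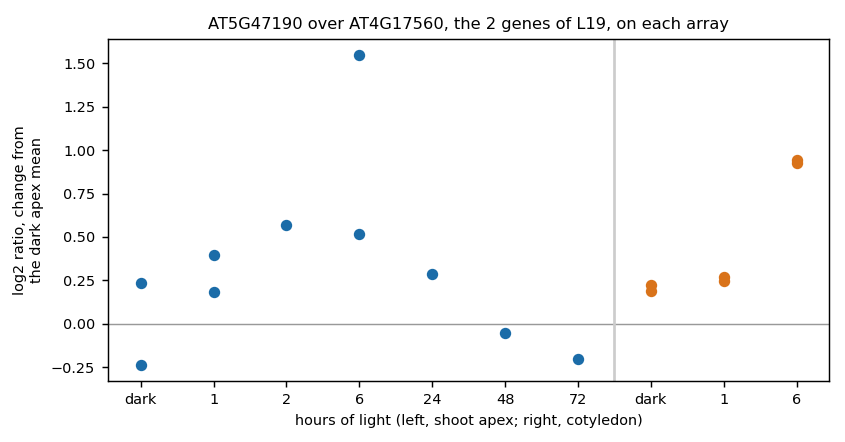
Log2 ratio of the signals of AT5G47190 and AT4G17560, which both encode L19, on each array, as the change from the mean of the 2 dark apex arrays, against hours of light. Both 6 h cotyledon arrays lay at 0.92 and 0.94, and the 6 h apex arrays at 0.52 and 1.55.

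The partner proteins encoded in the plastid genome had other values. Of 21 listed genes 15 were measured. After 6 h in the apex 7 of 15 fell and 0 rose, with a median of -1.999, beside 12.9% of all probe sets called lower and 12.3% higher. They were rpl22 (fell by 4.59 ± 1.04, adjusted p = 0.00531), rps3 (fell by 3.37 ± 0.81, adjusted p = 0.00788), rpl36 (fell by 3.13 ± 0.69, adjusted p = 0.00452), rpl16 (-2.74), rpl14 (-2.58), rpl33 (-2.02) and rps19 (-1.999), the last 4 with adjusted p between 0.01 and 0.0375. The count was 1 without the second 6 h array, 0 without the second dark array and 0 without both, with medians of -1.02, -1.10 and -0.34. The median change of the 15 genes was -0.73 and 0.73 on the 2 dark apex arrays and -1.02 and -3.18 on the 2 arrays at 6 h, the last being the array with the high 3′ to 5′ ratio. After 1 h in the apex their median was -0.49 in the main fit and 0.22 without the second dark array. The labelling starts from poly(A) tails, and plastid messages are in general not carried with such tails, so these signals need not follow the messages' levels. In late light 1 of 15 genes was lower than in the dark, rpl36 (fell by 2.16 ± 0.63, adjusted p = 0.0338), and in the other comparisons 0 of 15 passed. In the dark 0 of 15 passed between the tissues by limma, and 1 had an unadjusted p under 0.05, with a median of -0.21. Without the second dark apex array that count was 2 lower with a median of -1.12, without the second 6 h apex array it was 3 lower with a median of -0.21, and without both it was 5 lower with a median of -1.12. Of the plastid genes called lower after 6 h in the apex, all but rpl33 have locus codes between ArthCp057 and ArthCp063. Their calls need not be independent and need not stand for the whole list. The difference between the nuclear and the plastid genes was not tested.

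**Figure D5:**
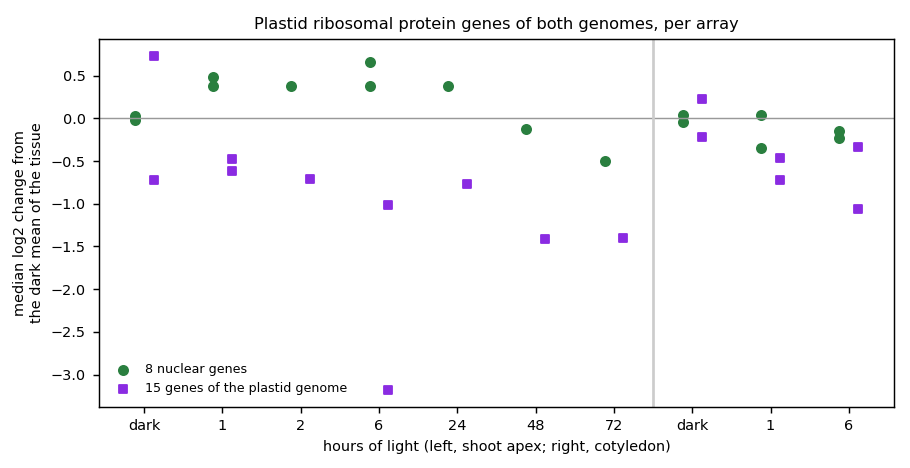
Median log2 change from the dark mean of the same tissue on each array, for the 8 nuclear genes (circles) and 15 plastid-genome genes of plastid ribosomal proteins (squares), against hours of light. The nuclear median lay between 0.37 and 0.66 on the apex arrays from 1 to 24 h, and the plastid-genome median between -3.18 and -0.48 on the same arrays. The 2 dark apex arrays, whose mean sets the 0 line of the apex, lay at -0.73 and 0.73 for the plastid-genome genes.

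Of 11 listed plastid translation factors 4 were measured. FUG1, the plastid initiation factor of the IF2 type, had apex signals of 549 and 532 in the dark, 594 and 614 after 1 h, 900.4 after 2 h and 1249 and 1064 after 6 h. It rose by 1.09 ± 0.21 after 6 h (adjusted p = 0.00165) and stayed 0.94 ± 0.19 above the dark in late light (adjusted p = 0.00373), with both calls kept in all alternative settings. It was lower in the dark apex than in the dark cotyledon, by -0.86 ± 0.21 (adjusted p = 0.0112). So was the IF3-type factor AT2G24060, at -1.18 ± 0.26 (adjusted p = 0.0062). The dark calls of FUG1 and AT2G24060 were kept in 16 and 17 of 19 alternative settings. AT5G24490 is related to the bacterial factors that hold ribosomes in an inactive state. Its apex signals were 2172 and 2983 in the dark, 1414 and 1697 after 1 h, 379 after 2 h and 998 and 475 after 6 h, and then 1854 at 24 h, 1433 at 48 h and 1632 at 72 h. It fell by 1.89 ± 0.33 in the apex after 6 h (adjusted p = 0.000916) and by 1.40 ± 0.33 in the cotyledon (adjusted p = 0.0103), and without the second 6 h apex array its apex change was -1.35 (adjusted p = 0.00809). AT4G30690, also of the IF3 type, fell in both tissues after 6 h, by 1.36 ± 0.37 and 1.41 ± 0.37 (adjusted p = 0.0144 and 0.0178). FUG1 rose by 0.67 ± 0.21 in the cotyledon after 6 h (adjusted p = 0.0429), a call kept in 4 of 19 alternative settings. The cotyledon calls of AT5G24490 and AT4G30690 were each kept in 15 of 19. Thus after 6 h in each tissue 1 of the 4 factors rose and 2 fell, where 12.3% and 12.9% of all probe sets were called higher and lower in the apex and 7.79% and 7.73% in the cotyledon. AT4G30690 was not called in the apex without the second dark or the second 6 h apex array. After 1 h in the apex 1 of 4 fell, AT4G30690 by 1.21 ± 0.37 (adjusted p = 0.0497), which passed in 4 of 19 alternative settings. From 6 h to late light AT5G24490 rose by 1.24 and AT4G30690 by 1.03 (limma, adjusted p = 0.011 and 0.0471). These calls were kept in 19 and 3 of 22 alternative settings, and 10.3% of all probe sets were called higher. At 1 h FUG1 and AT2G24060 were lower in the apex than in the cotyledon, at -0.82 and -1.17 (limma, adjusted p = 0.0248 and 0.0123). They kept their calls at 1 h in 14 and 15 of 19 alternative settings. In that comparison 3.79% of all probe sets were called lower.

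Of 9 listed ribosome assembly factors 3 were measured: the RNA helicase RH39, the RNA-binding protein RAP and the Era-like GTPase AT5G66470. RAP differed by -1.77 ± 0.28 between the dark apex and the dark cotyledon (apex minus cotyledon, adjusted p = 0.000703) and AT5G66470 by -1.57 ± 0.37 (adjusted p = 0.00971), so 2 of 3 were lower in the dark apex, where 8.36% of all probe sets were. RH39 was lower in the apex at 6 h, by -2.04 ± 0.48 (adjusted p = 0.0347), a call kept in 12 of 19 alternative settings, and without the second 6 h apex array it stood at -1.18 (adjusted p = 0.154). RAP fell by 1.12 ± 0.28 in the cotyledon after 6 h (adjusted p = 0.014), a call kept in 15 of 19 alternative settings. At 1 h RAP was lower in the apex than in the cotyledon, at -1.13 (limma, adjusted p = 0.0225), called in 14 of 19 alternative settings. In that comparison 3.79% of all probe sets were called lower. In late light 1 of 3, AT5G66470, was called lower than at 6 h, at -1.03, where 8.5% of all probe sets were. After 1 and 6 h of light in the apex 0 of 3 passed by limma, with 0 and 2 at an unadjusted p under 0.05. Of 21 listed genes of plastid transcription only AT5G15700, a phage-type RNA polymerase, had a probe set of its own, and it was too dim to be tested. Of 6 listed regulators of chloroplast development only HYH, a bZIP factor that acts with HY5, was measured. It rose in every comparison of light with dark, by 2.60 to 2.89 on the log2 scale (adjusted p at most 0.00066).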

How the data were processed

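Total RNA of each sample was hybridised to an Affymetrix ATH1 array. The deposited values are linear signal intensities from MAS5 and GCOS, per the submitters' processing notes; their versions are not given in the sources used here. The mean of each array, leaving out 2% of the values at each end, was 100.01 as deposited. Values were log2-transformed without a pseudocount or further scaling. Of 22746 non-control probe sets, 18237 exceeded their array's 35th percentile on at least 2 arrays and were tested, among them all 8 genes described. limma 3.58.1 (R 4.3.3) fitted 1 mean per group with moderated variances (eBayes with trend, 6 residual and 7.618 prior degrees of freedom). The 6 groups with 2 arrays gave the spread, and the 4 groups with 1 array were assumed to vary alike. P-values are two-sided, Benjamini-Hochberg adjusted over all tested probe sets, and called under 0.05. A locus stands by its single-gene probe set, and all such loci on the list are named. Of the other lists, apart from the cell type markers, genes that passed in a comparison described are named. The genes, lists and tests were chosen with earlier results of these data known. No pairing by replicate number was used in the main fit. Deviations of equally numbered arrays correlated at -0.13 to 0.12, with 1 of 15 pairs over 0.1, the apex at 1 and 6 h. The GAPDH ratio of 3′ to 5′ probe sets was higher on the second apex array in each replicated group. It was 1.78 against 0.90 in the dark, 1.85 against 0.83 at 1 h and 5.40 against 1.45 at 6 h. A replicate effect within the apex alone was not tested. Intensities carry no counts, so the number of arrays limits the precision.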

Additional observations from a re-analysis of the deposited data

Results flagged for a closer look

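The 6 h light response of AT4G17560 (L19) differed between the tissues by 1.59 on the log2 scale, apex minus cotyledon (SE 0.32, adjusted p = 0.0222 by limma, higher response in the apex), by a test of the difference itself. The same test gave 1.90 for AT5G47190, the other L19 gene (SE 0.44, adjusted p = 0.0362). Over the alternative settings the adjusted p ranged from 0.0129 to 0.113 for AT4G17560 and from 0.00383 to 0.212 for AT5G47190, and the differences themselves from 1.47 to 1.71 and from 1.17 to 2.38.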

How the results depend on the processing

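No alternative reversed a called value of the 8 genes. Of their single-gene results, 1645 kept their side of the threshold, of which 44 that were not called changed sign, 32 became called and 43 lost their call. Among the other lists rpl33, called lower in the apex at 6 h, stood at 0.19 without the second dark and 6 h apex arrays. The replicate block changed no call of the 8 genes: 7 were lower in the dark apex with it, 3 at 1 h and 1 at 6 h. Leaving out the filter on dim probe sets changed none either. Quantile normalization gave 2 called genes and a median of 0.052 in the apex at 6 h, 1 called gene for late light against dark, a median of -0.28 for late light against 6 h, and 2 called genes and a median of -0.47 in the cotyledon at 6 h. It moved the tissue medians to -0.98 in the dark, -0.46 at 1 h and -0.28 at 6 h. Centring arrays on their median moved the median of all probe sets from 0.13 to -0.13 for late light against 6 h, with 4 genes called and a median of -0.84. It gave a median of 0.040 in the cotyledon at 1 h, -1.66 for the dark tissue difference, 5 called genes and -1.11 for that at 1 h, 0 called at 6 h, and 1 for the difference in the 6 h response. A variance prior without trend called 1 gene between tissues at 1 h, 0 at 6 h and 0 for the difference in the 6 h response. The filter at the 50th percentile called 3 genes in the apex at 6 h, 1 for late light against dark, 4 against 6 h and 5 between tissues at 1 h. Without the second dark and 6 h apex arrays together, 0 were called in the apex at 6 h (median 0.30) and 0 for the difference in the 6 h response (median 0.49). Leaving out 1 array at a time gave 0 to 1 called genes and medians of 0.37 to 0.48 in the apex at 1 h, and 1 to 2 and 0.38 to 0.66 at 6 h. Late light had 0 to 1 and -0.29 to 0.13 against dark, and 1 to 6 and -0.86 to -0.38 against 6 h. The cotyledon had 0 called and -0.35 to 0.036 at 1 h, and 0 to 1 and -0.32 to -0.15 at 6 h. Tissues differed in 6 to 7 genes with medians of -1.59 to -1.34 in the dark, 0 to 4 with -1.04 to -0.63 at 1 h, and 0 to 1 with -0.76 to -0.46 at 6 h. The difference in response had 0 called and 0.40 to 0.78 at 1 h, and 0 to 2 and 0.47 to 0.85 at 6 h. The cause was not tested. The late arrays were left out in turn as an alternative chosen after the data were seen, as were the lists under the alternatives. A mean over probe sets and a floor for folds were not run, since each gene had 1 probe set and none was dim.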

Other observations

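AT1G29070, which encodes plastid ribosomal protein L34 and is not among the 38 listed loci, also had a probe set of its own, and it was picked after its values were seen. Its apex signals were 1404 and 1448 in the dark, 1741 and 2274 after 1 h, 2316 after 2 h, 3155 and 3709 after 6 h, 2242 after 24 h, 1476 after 48 h and 1226 after 72 h of light. Its cotyledon signals were 4883 and 4210.4 in the dark, 4669 and 3862 after 1 h and 4872 and 4780.3 after 6 h. All 6 cotyledon arrays were above all 10 apex arrays, and the 72 h array was the lowest. It was not tested here.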
